A study of Mus musculus with 2 samples.

Results

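The guanylate-binding protein (Gbp) genes were followed in whole skin of 3-day-old C57BL/6 mice, as the 10 rows of the deposited gene table named Gbp2 to Gbp11, out of 44166 genes. The skin was profiled by RNA sequencing in 1 library of the wildtype (labelled WT) and 1 library of the genotype RNF31fl/fl-K14-cre (labelled KO). In the second genotype Rnf31, which encodes HOIP, the ligase that builds linear ubiquitin chains within the LUBAC complex, has both alleles floxed. Cre comes from a K14 transgene, whose promoter works in keratinocytes of the basal layer, so other skin cells keep Rnf31 unless they descend from these. The comparison asks which transcripts of neonatal skin differ in level when Rnf31 is targeted in keratinocytes. The number of animals behind each library, the sex of the animals, and whether the wildtype carried cre or floxed alleles are not stated. The members were chosen by family name with their FPKM in both libraries already known, so its values are a description and no test is attached to them.

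Guanylate-binding proteins are large GTPases of the dynamin superfamily that cells make in response to interferons, above all interferon gamma. They bind guanine nucleotides, assemble on the membranes of pathogen-containing vacuoles or on bacteria in the cytosol, and act there together with the immunity-related GTPases and with caspase-11. Some carry a C-terminal prenyl group that anchors them to membranes. In mouse macrophages and fibroblasts they are known from resistance to Toxoplasma gondii and to intracellular bacteria. Keratinocytes, macrophages and endothelial cells all make them when exposed to interferon.

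Sequencing gave 19619928 reads for WT (92.56% aligned) and 20511407 for KO (93.59% aligned). Levels are FPKM, fragments per kilobase of transcript scaled to the library's depth, as the authors deposited them, so levels of different genes may be set side by side per length. Differences are given as the log2 ratio, log2 of (FPKM + 1) in KO over (FPKM + 1) in WT, which understates the difference of low genes, and a plain ratio is FPKM over FPKM without the added 1. A gene with an FPKM of at least 1 in either library is above the floor, and one with a log2 ratio of at least 1 (2-fold) is called higher. There are no replicates, so no difference has a replicate check. The 95% intervals given come from estimated fragments and cover counting error only. The epidermal marker Krt5 was at 1054 and 3014 FPKM in WT and KO, and the suprabasal keratin gene Krt10 at 678 and 188. Of the other markers of differentiated keratinocytes, Krt1 was at 435 and 332 and Lor, in the opposite direction, at 758 and 1213. The targeted gene Rnf31 was at 3.95 FPKM in WT and 5.396 in KO (ratio 1.36, interval 1.14 to 1.63), so its level does not bear out the label. Rnf31 was deposited under a single locus with Irf9, so the division of reads between them is uncertain and lies outside this interval. FPKM over a whole gene need not show a deletion of some exons. For these reasons the genotypes are written as labels, and every direction below is between the library labelled KO and the library labelled WT.

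All 10 members were listed at a higher level in the library labelled KO than in the library labelled WT. Their FPKM in WT ran from 0 (Gbp8, Gbp10 and Gbp11) to 1.48 (Gbp3), with a median of 0.335, and in KO from 0.836 (Gbp11) to 25.8 (Gbp2), with a median of 2.72. The ranges of the 2 libraries overlapped, since Gbp3 in WT lay above Gbp10, Gbp8 and Gbp11 in KO. Gbp3, Gbp2 and Gbp7 were the only members near or above an FPKM of 1 in WT. Summed over the family, the level was 4.78 FPKM in WT and 65.2 in KO, a ratio of 13.6 (12 to 15.5). In bulk skin, more cells that make a transcript and more of that transcript in each cell cannot be told apart.

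**Figure D1:**
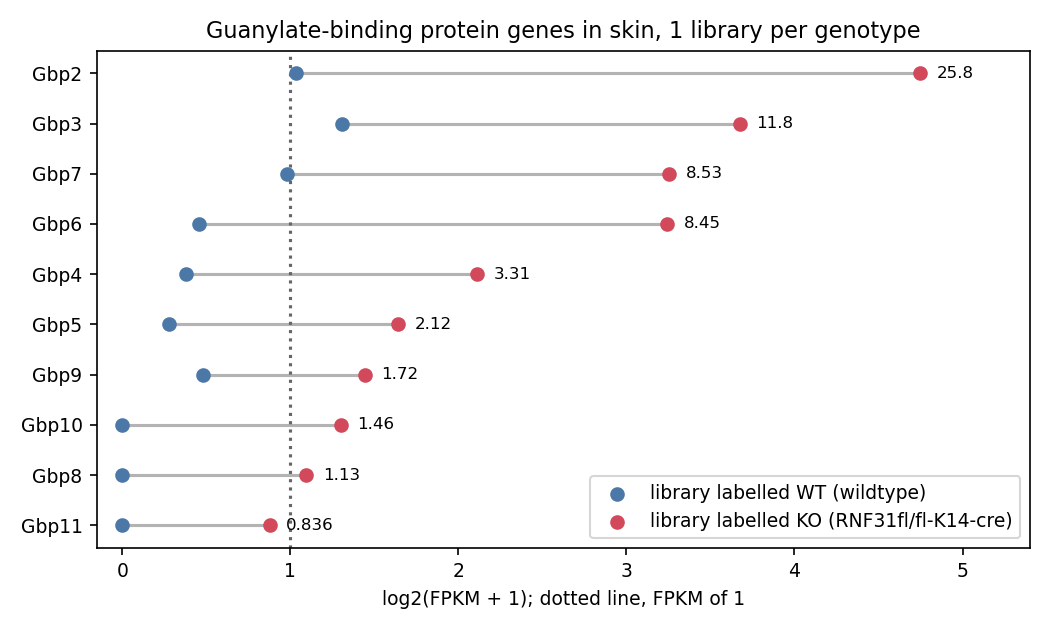
Level of each guanylate-binding protein gene as log2(FPKM + 1), with 1 point for the library labelled WT (wildtype), 1 for the library labelled KO (RNF31fl/fl-K14-cre) and the FPKM in KO printed beside it. All 10 genes lie further right in KO, from 0.836 FPKM for Gbp11 to 25.8 for Gbp2.

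Of the 10 members, 9 were above the floor, and 8 of these 9 were called higher and 0 lower. Over all 14541 genes above the floor, 7.59% were called higher and 4.09% lower. The members' share rests on how the floor works, since 7 of the 9 passed it only through the library labelled KO and so had to be higher there. Gbp2 and Gbp3 passed it in both libraries. The median log2 ratio of the 9 was 1.73, and of all 10 members 1.55, against -0.08 over all genes above the floor. A log2 ratio of at least 2 (4-fold) was reached by 4 members (Gbp2, Gbp6, Gbp3 and Gbp7) and by 2.04% of all genes.

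Gbp2, a prenylated member that gathers at the Toxoplasma vacuole in mouse cells, differed most by log2 ratio. It stood at 1.04 FPKM in WT and 25.8 in KO, a ratio of 24.8 (18.1 to 34.3) and a log2 ratio of 3.72, which ranked 88 among the 14541 genes. It was second in WT and first in KO, and its share of the family's summed level was 21.9% in WT and 39.7% in KO. Gbp3, which also reaches the vacuole in mouse cells, was the most abundant member in WT (1.48 FPKM, 31.0% of the sum) and second in KO (11.8 FPKM, 18%). Its ratio of 7.94 (6.10 to 10.5) has a counting interval that does not overlap that of Gbp2. The ratio intervals of Gbp6 (13.9 to 42.0) and Gbp5 (5.35 to 22.0) do overlap that of Gbp2.

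Gbp7, known in mouse macrophages for delivering the oxidative burst machinery to bacteria, was at 0.970 FPKM in WT and 8.53 in KO (ratio 8.80, 7.07 to 11.2). Gbp5, known in mouse macrophages as a partner of the NLRP3 inflammasome, was far less abundant, at 0.214 and 2.12 FPKM (ratio 9.91, 5.35 to 22.0). The plain ratio of Gbp5 thus lay between those of Gbp7 and Gbp4 although its log2 ratio of 1.36 was smaller than the 2.27 of Gbp7, since the added 1 weighs more at low levels. Gbp4, described in mouse cells as a negative regulator of IRF7, was at 0.30 FPKM in WT and 3.31 in KO (ratio 11.1, 7.01 to 17.6).

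Gbp6, which restricts intracellular bacteria in mouse macrophages, was at 0.370 FPKM in WT and 8.45 in KO (ratio 22.8, 13.9 to 42.0). Its log2 ratio of 2.79 was the second highest of the family and ranked 154 among all genes. Gbp10, its close copy, was listed at 0 in WT and at 1.46 in KO. Summed as a pair, Gbp6 and Gbp10 stood at 0.370 and 9.91 FPKM, a ratio of 26.8. Gbp9, another protein of the Toxoplasma vacuole in mouse cells, was at 0.398 and 1.72 FPKM (ratio 4.31, 2.81 to 6.69), the smallest plain ratio among the members listed above 0 in both libraries. Its log2 ratio was 0.96, so it was inside the 2-fold rule only through the added 1. Gbp8 was listed at 0 in WT and at 1.13 FPKM in KO, and Gbp11 at 0 and 0.836, under the floor. An exact 0 can be a failed estimate, so no ratio is given for Gbp8, Gbp10 and Gbp11.

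The order of the levels was similar at the top of both libraries but not identical. In KO the order was Gbp2, Gbp3, Gbp7, Gbp6, Gbp4, Gbp5, Gbp9, Gbp10, Gbp8 and Gbp11. Counting intervals separated Gbp2 (24.3 to 27.5 FPKM) from Gbp3 (10.7 to 12.8) and Gbp3 from Gbp7 (7.93 to 9.15), but not Gbp7 from Gbp6 (7.59 to 9.38). Gbp4 (2.91 to 3.76) lay apart from Gbp6 above and Gbp5 (1.72 to 2.56) below it, and each neighbouring pair from Gbp5 down to Gbp11 had overlapping intervals. In WT the order was Gbp3, Gbp2, Gbp7, Gbp9, Gbp6, Gbp4 and Gbp5, with the rest listed at 0. There Gbp3 (1.14 to 1.89), Gbp2 (0.758 to 1.42) and Gbp7 (0.772 to 1.19) were not separated from each other, and Gbp9 (0.267 to 0.582), Gbp6, Gbp4 and Gbp5 formed a second tier with overlapping intervals.

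The members lie in 2 clusters. Gbp5, Gbp7, Gbp3 and Gbp2 lie on the plus strand of chromosome 3 within 144 kb, from 142493978 (the start of Gbp5) to 142638008 (the end of Gbp2) in GRCm38. Gbp8, Gbp9, Gbp4, Gbp10, Gbp6 and Gbp11 lie on the minus strand of chromosome 5 within 332.3 kb, from 105014150 to 105346472. GENCODE lists 9 of the 10 as protein coding and Gbp11 as a polymorphic pseudogene. The summed level of the chromosome 3 members was 3.71 FPKM in WT and 48.3 in KO (ratio 13.0), and that of the chromosome 5 members 1.07 and 16.9 (ratio 15.8). The chromosome 3 cluster therefore carried 77.6% of the family's level in WT and 74.1% in KO.

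The genes above the floor nearest to each cluster were mostly inside the 2-fold rule. Genes under the floor were skipped, so some of those compared lie far away. On chromosome 3 their midpoints ran from -3951 kb (Eif4e) to 1933 kb (Gm5857), counted from the start of the cluster. On chromosome 5 they ran from -915 kb (Sparcl1) to 882 kb (Zfp326). Of the 5 nearest genes above the floor on each side, 1 of 10 around the chromosome 3 cluster was called higher (Pdlim5, a cytoskeletal adaptor gene, 26.9 and 54.8 FPKM, log2 ratio 1.001) and 1 lower (the short predicted gene Gm5857, 1.09 FPKM in WT and listed at 0 in KO), with a median log2 ratio of -0.00473. On the other side, the first gene above the floor beyond Gbp2, the aminotransferase gene Kyat3, was at 9.33 and 6.86 FPKM. Around the chromosome 5 cluster 1 of 10 was called higher, Spp1, the gene of the secreted protein osteopontin (0.105 and 6.65 FPKM, log2 ratio 2.79), and 0 lower, with a median of 0.15. The volume-regulated anion channel genes Lrrc8b, Lrrc8c and Lrrc8d that follow Gbp11 had log2 ratios of -0.04, 0.19 and 0.15. Within the chromosome 3 cluster the further family gene Gbp2b was listed at 0 in WT and at 0.222 FPKM in KO, and the pseudogene Gbp2-ps, beyond Gbp2, at 0 in both.

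**Figure D2:**
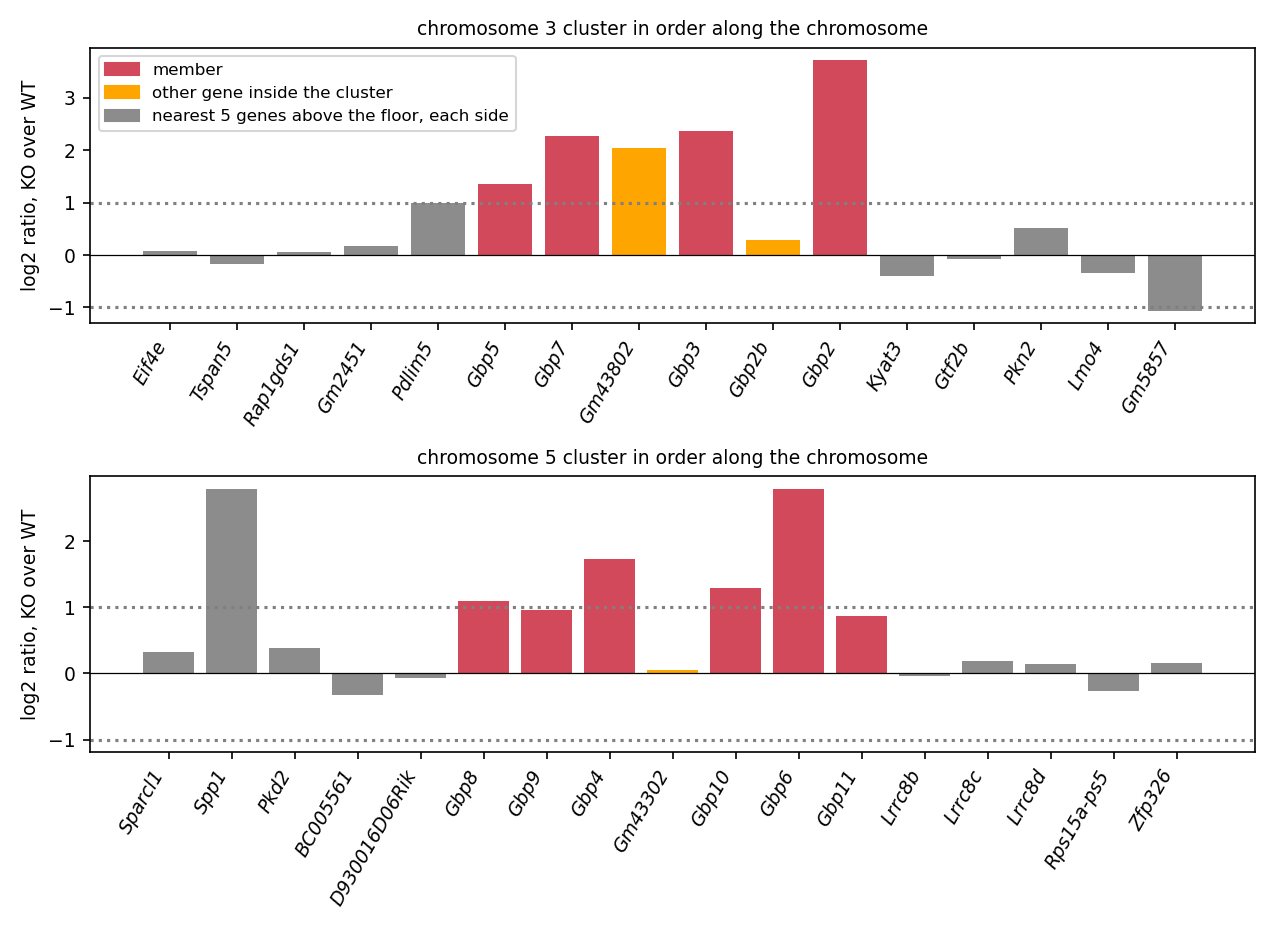
Log2 ratio of (FPKM + 1), KO over WT, for the genes of each cluster in chromosome order, with members in red, other genes inside the cluster in orange and the nearest 5 genes above the floor on each side in grey; dotted lines mark 2-fold. Gbp2 (3.72) and Gbp6 (2.79) are the tallest members of their clusters, and among the grey genes Spp1 (2.79) and Pdlim5 (1.001) are past the upper line.

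Promoter sequence was available for 4 of the 10 members, all of the chromosome 3 cluster, from RefSeq on GRCm38.p6. Gbp4, Gbp6, Gbp8, Gbp9, Gbp10 and Gbp11 are not in that table. The 250 bases before the start of each gene as RefSeq places it are shown because motifs through which interferon signalling acts are known from promoters of this family. These starts are not those of GENCODE used for the positions above. Those of Gbp2, Gbp3 and Gbp5 lie downstream of their GENCODE starts, inside the gene as GENCODE draws it. Capitals mark matches, on either strand, to the core of the interferon-stimulated response element (GAAA, any 2 bases, GAAA, which reads TTTC, any 2 bases, TTTC on the strand shown) and to the gamma-activated site (TTCNNNGAA, the same on both strands).
Gbp2, chr3:142620413-142620662, plus strand: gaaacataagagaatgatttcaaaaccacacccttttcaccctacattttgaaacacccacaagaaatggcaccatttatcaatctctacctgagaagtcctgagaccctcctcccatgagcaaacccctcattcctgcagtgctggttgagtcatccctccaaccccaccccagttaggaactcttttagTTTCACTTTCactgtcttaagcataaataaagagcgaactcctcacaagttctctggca
Gbp3, chr3:142559794-142560043, plus strand: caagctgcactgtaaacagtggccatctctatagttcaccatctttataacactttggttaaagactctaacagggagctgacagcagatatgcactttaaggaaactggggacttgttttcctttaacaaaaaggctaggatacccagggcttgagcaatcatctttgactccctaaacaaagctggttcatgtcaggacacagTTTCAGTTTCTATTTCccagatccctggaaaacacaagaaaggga
Gbp5, chr3:142496684-142496933, plus strand: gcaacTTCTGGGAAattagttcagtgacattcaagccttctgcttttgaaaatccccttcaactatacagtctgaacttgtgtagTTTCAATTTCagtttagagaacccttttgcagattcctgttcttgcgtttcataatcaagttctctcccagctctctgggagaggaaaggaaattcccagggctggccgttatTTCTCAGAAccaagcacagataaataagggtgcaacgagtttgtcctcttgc
Gbp7, chr3:142530086-142530335, plus strand: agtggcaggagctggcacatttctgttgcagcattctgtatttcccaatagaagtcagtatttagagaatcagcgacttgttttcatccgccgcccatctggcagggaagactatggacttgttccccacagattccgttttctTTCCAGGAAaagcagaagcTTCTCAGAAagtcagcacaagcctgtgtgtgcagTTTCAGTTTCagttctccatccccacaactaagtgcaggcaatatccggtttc

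Each of the 4 genes held the response element core in these bases. It began 59 bases before the start of Gbp2, 53 bases before that of Gbp7 and 165 bases before that of Gbp5. In Gbp3 there were 2 overlapping matches, which began 45 and 39 bases before the start, and the window of a second RefSeq start of Gbp3, further downstream, held none. Set against the GENCODE starts, these matches lie inside the gene in Gbp2 and Gbp5 and before it in Gbp3 and Gbp7. The same core was present in 2.98% of the 250-base stretches before the start in all 32851 promoter windows, and in 3.44% of the full windows of 300 bases, which add 50 bases after the start. The gamma-activated site core was present in Gbp5 (245 and 52 bases before the start) and Gbp7 (106 and 87 bases before), without overlap with the other motif, and in 7.02% of all 250-base stretches (8.30% of the full windows). A loose NF-kB core (GGG, any 5 bases, CC, either strand) was found in the 250 bases before the start of Gbp5, at 77 bases, and in 45.8% of all such stretches. Over the full windows of 300 bases it was found in 3 of the 4 genes (Gbp5, and after the start in Gbp2 and Gbp3) and in 50.8% of all windows. The members with the gamma-activated site core (Gbp5 and Gbp7) had log2 ratios of 1.36 and 2.27, and those without it in this window (Gbp2 and Gbp3) 3.72 and 2.36. A match is a run of letters, not a measured binding site.

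**Figure D3:**
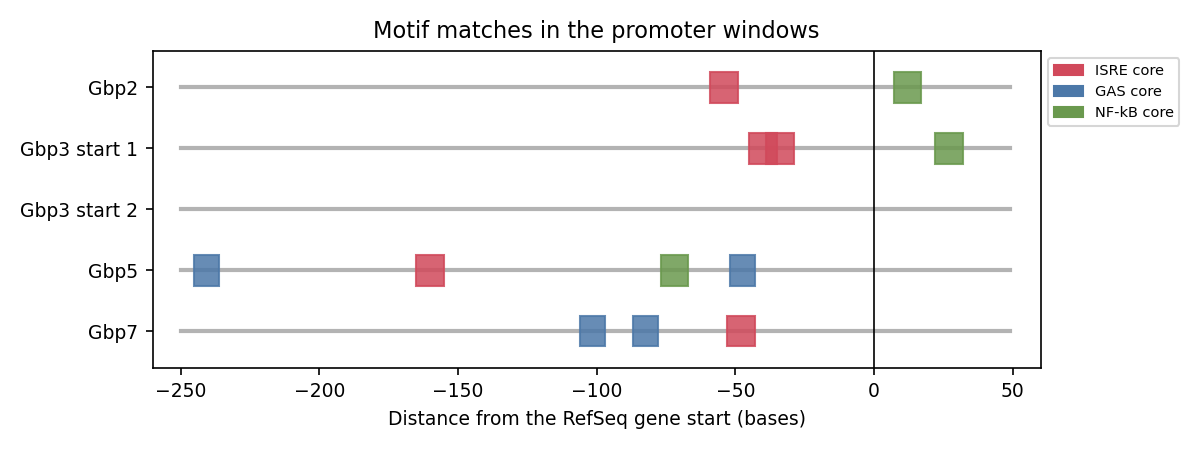
Motif matches along the 300-base promoter windows of the 4 members with RefSeq promoter sequence, with distance from the gene start in bases on the x axis; Gbp3 has 2 starts. Red boxes (interferon-stimulated response element core) lie between 165 and 30 bases before the RefSeq start in all 4 genes, and the second Gbp3 start has no box.

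The split of reads among members is not equally certain for all of them. Between coding sequences, identity ran from 51.8% to 71.3% across the clusters and from 58.3% to 98.4% within them. Gbp6 and Gbp10 were the closest pair, with 30 differing positions in 1836 coding bases. The 90 bases of their coding sequence in which they differ most, coding bases 1561 to 1650 of the GENCODE transcripts, are shown because they hold 12 of these positions and are where reads can be told apart. Capitals mark the differing bases.
Gbp6, chromosome 5, minus strand: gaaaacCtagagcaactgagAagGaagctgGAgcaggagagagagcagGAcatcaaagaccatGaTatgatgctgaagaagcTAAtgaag
Gbp10, chromosome 5, minus strand: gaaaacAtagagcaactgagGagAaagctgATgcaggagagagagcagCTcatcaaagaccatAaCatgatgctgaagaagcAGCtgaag

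Of the 50-base stretches in the longest coding transcript of Gbp10, 70.6% were also present in a transcript of Gbp6, and of those of Gbp6 62.3% were present in Gbp10. How the authors' counting divided such reads is not stated, so the split between Gbp6 and Gbp10, and the listed 0 of Gbp10 in WT, are uncertain. The summed reads of the pair do not depend on this split. Their summed FPKM does in part, since FPKM is per length and the longest coding transcripts differ (2604 bases for Gbp6, 3528 for Gbp10). The gene Gm43302 bears on the sum, since it shares 1726 exonic bases with Gbp6 and 1792 with Gbp10 on the same strand. It was listed at 0 in WT and at 0.0403 FPKM in KO. Over all genes, 90.2% of the stretches of Gbp6 and 82.5% of those of Gbp10 were found in another gene. For Gbp8 21.2%, for Gbp11 19.2%, for Gbp4 12.8% and for Gbp9 9.56% of stretches were shared with another member, and in the annotation some of them overlap. Gbp4, Gbp8 and Gbp9 share 60 or 61 exonic bases on the same strand and were deposited under a single locus. By contrast 0% of the stretches of Gbp2 and of Gbp5 were shared with another member, 2.28% of those of Gbp7 and 4.79% of those of Gbp3. Gbp2, the member with the largest ratio, therefore shares no such stretch with a member. The processed pseudogene Gm43802 lies inside Gbp7 and shares 637 exonic bases with it. It was listed at 0 in WT and at 3.14 FPKM in KO, and over those bases its reads cannot be told apart from those of Gbp7.

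**Figure D4:**
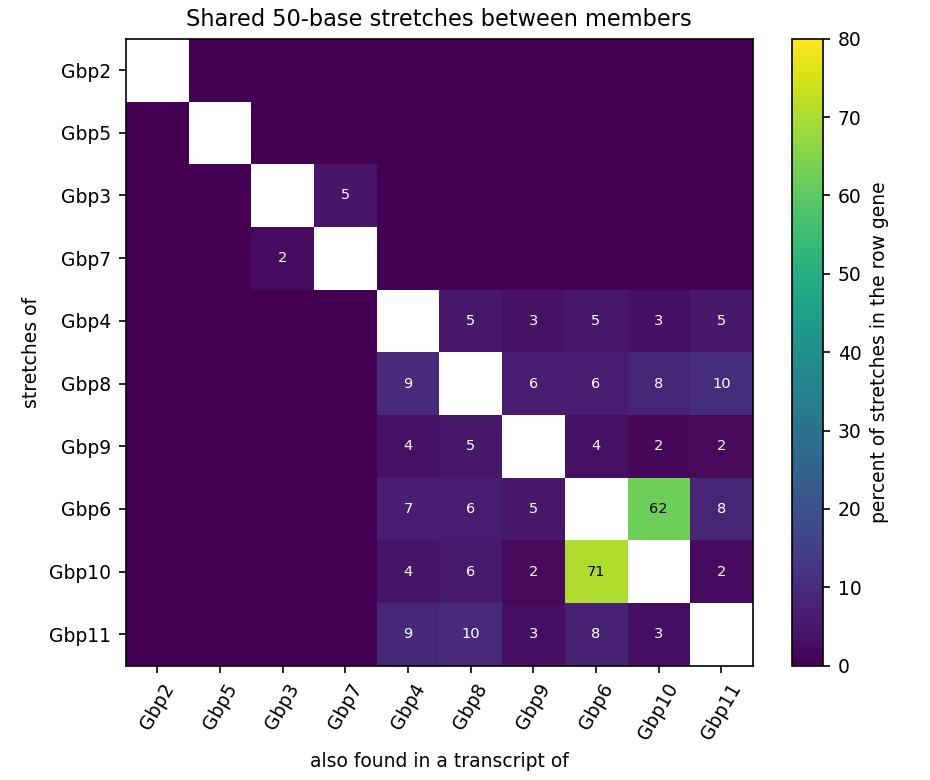
Share of the 50-base stretches of each member (rows) that are also found in a transcript of another member (columns), in percent, with values of at least 1 printed. The 2 bright cells are Gbp10 against Gbp6 (70.6%) and Gbp6 against Gbp10 (62.3%), and Gbp2 and Gbp5 share none.

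In the pathway known to drive these genes, several signal transducers were called higher in KO. Of 18 receptor and signalling genes, all above the floor, 6 were called higher and 0 lower, with a median log2 ratio of 0.73. The interferon gamma receptor subunits Ifngr1 (16.4 and 21.2 FPKM in WT and KO) and Ifngr2 (14.8 and 13.1) had ratios of 1.29 and 0.890. Irf1, which is known to bind the response element in Gbp promoters, was at 3.13 and 11.4 FPKM (ratio 3.64, 2.94 to 4.57). Stat2 was at 2.72 and 8.86, Irf7 at 6.82 and 27.7, and the feedback inhibitor Usp18 at 0.0799 and 2.87 FPKM. Irf9, a DNA-binding factor of the type I interferon response, was at 6.91 and 15.1 FPKM, and was deposited under a single locus with Rnf31, so the division of reads between these genes is uncertain. Irf8 (1.97 and 4.36 FPKM, log2 ratio 0.85) and the repressor gene Irf2 (9.37 and 6.56, log2 ratio -0.46) were inside the 2-fold rule.

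Interferon ligand transcripts were at or near 0 in both libraries. Of 25 genes for interferons and the cytokines that induce interferon gamma, 24 stayed under the floor and 17 were listed at 0 in both libraries. Ifng was listed at 0 in WT and at 0.0577 FPKM in KO, which corresponds to about 1 fragment. Ifnb1 was listed at 0 and 0.120 FPKM, also about 1 fragment, and Ifne, an epithelial interferon gene, at 0.167 FPKM in WT and 0 in KO. For these 3 genes a difference was not detectable at this depth. Il27, whose product promotes interferon gamma production, was at 0.0732 and 0.473 FPKM, about 1 and 8 fragments (ratio 6.46, 1.07 to 353). Il18, an epidermal cytokine that induces interferon gamma in lymphocytes, was the gene above the floor, at 4.34 and 25.8 FPKM (ratio 5.93, 4.52 to 7.92).

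The immunity-related GTPases, which work beside the Gbp proteins at vacuoles, were called higher in most cases. Of 15 listed, 11 were above the floor, 10 were called higher and 0 lower, and the median log2 ratio was 2.23. Over all genes above the floor 7.59% were called higher. The count rests on the floor in part, since Irgm2, Gm4841, F830016B08Rik and others passed it only through KO and so had to be higher there. With no floor, the median was 1.52, beside 1.55 for the Gbp genes, so the order of these lists rests on the floor. Iigp1 was at 1.05 and 31.1 FPKM in WT and KO, the predicted family genes F830016B08Rik and Gm4841 at 0.0712 and 13.5 and at 0 and 11.2, Igtp at 2.19 and 28.7, Irgm1 at 2.05 and 17.3 and Irgm2 at 0.982 and 7.84. Levels of Gbp2 and Iigp1 were thus close in both libraries, and Iigp1 was among the 5 named genes outside the family that lay nearest to Gbp2 by distance in log2(FPKM + 1) over the 2 libraries. The others were Ehf, an epithelial transcription factor gene (1.13 and 27.3 FPKM), Serpinb6c (0.849 and 26.3), the chemokine gene Ccl7 (1.39 and 25.8) and Il1f8, the gene of interleukin 36 beta (0.519 and 24.6). With only 2 libraries this likeness means a similar pair of levels and no more.

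Of 20 genes known to respond to interferon gamma, 17 were above the floor, 12 were called higher and 0 lower, with a median log2 ratio of 1.42. The chemokine gene Cxcl10 was at 0.0772 and 11.5 FPKM, Cxcl9 at 0.128 and 5.49, the class I transactivator Nlrc5 at 1.29 and 10.7, and the immunoproteasome subunit Psmb9 at 3.30 and 19.6. Class II genes were close to equal, with H2-Aa at 8.85 and 10.2 and Cd74 at 20.2 and 22.5 FPKM. Of 25 antiviral interferon-stimulated genes, 24 were above the floor, 15 were called higher and 0 lower, and the median was 1.16, with Ifit3 at 2.46 and 16.2 FPKM and Oasl1 at 0.202 and 4.19, Ifitm3 at 221 and 827 and Ifit1 at 0.511 and 4.53. The differences between these medians and that of the Gbp genes were not tested, as there is 1 library per genotype. The counts rest on the floor in part, since Cxcl9, Cxcl10, Oasl1, Ifit1 and others passed it only through KO and so had to be higher there. The same holds for some genes of the other lists, such as Usp18, Mx1, Mx2, Il1b and Ubd. The share to set beside each list is the 7.59% of all genes above the floor that were called higher.

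Other large GTPases of the dynamin superfamily were mostly inside the 2-fold rule. Of 17 listed, 15 were above the floor, 3 were called higher (Mx1 at 0.292 and 1.68 FPKM, Mx2 at 0.342 and 2.24, and Ehd3 at 1.39 and 5.90) and 0 lower, and the median log2 ratio was 0.09. Mx1 and Mx2 are themselves interferon-induced. The atlastins, the nearest structural relatives of the Gbp proteins in the endoplasmic reticulum, were all inside the rule or under the floor, with Atl3 at 11.5 and 11.4 FPKM, Atl2 at 20.98 and 16.9 (ratio 0.803, 0.738 to 0.875) and Atl1, under the floor, at 0.265 and 0.470 (ratio 1.77, 1.02 to 3.12).

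Partners of the Gbp proteins in cell death were called higher in part. Of 12 inflammasome and pyroptosis genes, 7 were above the floor and 3 were called higher. These were Zbp1, a nucleic acid sensor (1.24 and 15.9 FPKM), Il1b (0.172 and 4.56) and Casp4, the mouse caspase-11 gene (1.47 and 6.15, ratio 4.17, 2.82 to 6.19). Gsdmd, the gene of the pore-forming gasdermin D (2.16 and 4.42 FPKM), and Aim2, a DNA sensor whose activation by Francisella needs Gbp proteins in mouse macrophages (1.03 and 2.03), had log2 ratios of 0.78 and 0.58. Nlrp3 was listed at 0 in WT and at 0.156 FPKM in KO.

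Genes of vacuole targeting, ubiquitin and ATG8 conjugation, and of prenylation, were mostly inside the rule. Of 18 vacuole targeting, ubiquitin and ATG8 conjugation genes, 3 were called higher and 0 lower, with a median log2 ratio of 0.06. The 3 were the giant ubiquitin ligase gene Rnf213 (1.64 and 6.86 FPKM), the ubiquitin-like modifier gene Ubd (0.337 and 2.08) and Trim21 (0.968 and 3.17), all known to respond to interferon. None of 7 prenylation enzyme genes was called, and the median was 0.04. The farnesyltransferase subunits Fnta (34.4 and 35.0 FPKM) and Fntb (18.6 and 15.99) and the prenyltransferase subunit Pggt1b (4.30 and 3.01) had ratios of 1.02, 0.862 and 0.699. Of 7 genes of the linear ubiquitin complex and its regulators 0 were called, and of 9 NF-kB subunit and inhibitor genes above the floor 3 were called higher, with 0 lower. These were Bcl3 (2.97 and 14.8 FPKM), Nfkbiz (1.73 and 8.99) and Nfkbia (36.4 and 90.2), which encode proteins of the inhibitor family. The medians of these lists were 0.07 and 0.63.

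**Figure D5:**
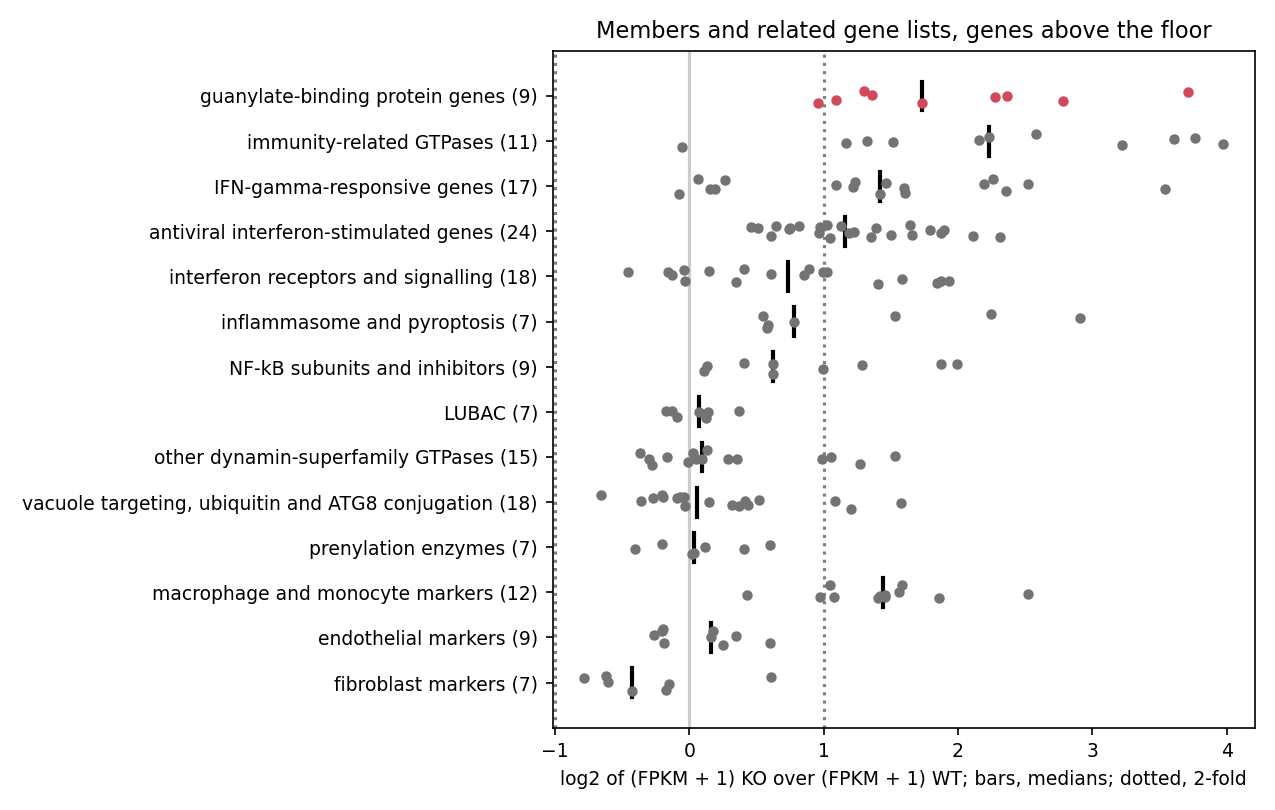
Log2 ratio of (FPKM + 1), KO over WT, for each gene above the floor in the Gbp family (red) and in related lists (grey), with the number of genes in parentheses, medians as black bars and 2-fold as dotted lines. The medians are 2.23 for the immunity-related GTPases, 1.73 for the Gbp genes and 1.42 for the interferon gamma-responsive genes (1.52, 1.55 and 1.23 with no floor), and the medians of the prenylation and other dynamin-superfamily lists are 0.04 and 0.09.

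Markers of cells that can make Gbp transcripts were also compared. Of 12 macrophage and monocyte markers, all above the floor, 10 were called higher and 0 lower, with a median log2 ratio of 1.44. Their summed level was 220.5 FPKM in WT and 574 in KO, a ratio of 2.60. Most of it came from C1qa, C1qb and C1qc, with ratios of 2.68, 2.78 and 2.71. Single markers ran from a ratio of 1.39 (Csf1r) to 48.4 (Ly6c2, about 1 fragment in WT). The markers called higher included Ly6c2 (0.111 and 5.37 FPKM), Cd14 (1.77 and 9.06), Fcgr1 (0.80 and 4.40) and Itgam (0.331 and 2.93), and none of the 12 was at 0. A second identifier named Itgam, listed at 0 in both libraries, was left out of the 12. Of 8 keratinocyte markers 4 were called higher (among them Krt14, at 816 and 12590.1 FPKM) and 1 lower (Krt10), with summed levels of 3801 and 17469 FPKM. Krt14 alone made up most of the KO sum and of its difference from the WT sum. The 3 keratinocyte markers inside the rule went in both directions. Of 9 endothelial markers 0 were called (sums 168.6 and 180 FPKM), and of 7 fibroblast markers 0 were called (3264 and 2489). All 14 T and NK cell markers were under the floor, with a highest level of 0.846 FPKM, sums of 2.27 and 3.84 FPKM, and Ncr1 and Cd8a at 0 in both libraries. Within that list, the killer cell receptor gene Klrk1 was at 0.0804 FPKM in WT and 0.563 in KO (about 4 and 29 fragments, ratio 6.997, 2.53 to 28.2), and the T cell receptor signalling gene Cd247 at 0.126 and 0.406 (ratio 3.23, 1.21 to 9.64). The granzyme gene Gzma was listed at 0 and 0.761 FPKM (about 12 fragments in KO), and Cd3g at 0.681 and 0.207. The part of these cells in the Gbp difference was not tested.

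The authors' deposited table holds a Cuffdiff comparison of the same 2 libraries, which compares the libraries and not the genotypes. It called 96 genes significant in the authors' deposited table, and 1 of them was a member, Gbp11 (q-value 0.0282), the member with the lowest level in KO. In the authors' deposited table the other 9 members had q-values from 0.0902 (Gbp2) to 0.999 (Gbp8, Gbp9 and Gbp10). Of the 96 called genes in the authors' deposited table, 35 were listed at 0 in 1 library, as Gbp11 was.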

How the data were processed

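Skin RNA of 1 wildtype and 1 RNF31fl/fl-K14-cre library was sequenced from a directional kit, per the labels' protocols, and grouped by the genotype label. The submitters' processing notes name cutadapt 1.9.1, HISAT2 2.0.4, Cufflinks 2.2.1 and GRCm38. Per the file headers, the authors deposited FPKM per gene and library with the p-value and q-value of their Cuffdiff comparison, and a sheet with the read count and the fraction of reads aligned. The annotation release, the treatment of shared reads and the use of strand in counting are not stated in the labels or headers.

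The log2 ratio used a pseudocount of 1 and a floor of 1 FPKM in at least 1 library (14541 genes), a 2-fold rule and no test, since there is 1 library per genotype. Alternatives were other pseudocounts, floors, scalings and a 4-fold rule. Fragments were estimated from FPKM, the longest coding transcript in GENCODE mouse release M21 (43831 of 44166 identifiers found) and the spacing of low FPKM values. Of low values, 78.7% of 403 (WT) and 75.4% of 402 (KO) fell within 0.25 of a whole number of steps. A step fixed in advance would give 50% by chance. This step was fitted to the same values, so the share is no separate check of it. An FPKM of 1 over 2 kb was then about 31.8 fragments in WT and 31.9 in KO. Ratio intervals are exact binomial (Clopper-Pearson) and level intervals exact Poisson, at 95%. That of the ratio of summed levels is approximate. It was taken on the pooled fragments of all members (266 in WT and 3281 in KO) and moved onto that ratio by its relative width. With no molecular identifiers, reads may be copies of a molecule, so these intervals cover counting error only. Starts in the file count from 0 and are written here counting from 1. Coding sequences were aligned globally with Biopython 1.88. The calling step was tested on simulated data in which only genes well above the floor were changed, by 4-fold. The simulation therefore does not cover calls of members near the floor.

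The members, lists and rules were chosen with earlier results of these data known. Named genes are all members, the regulators Stat2, Irf1, Irf2, Irf8, Irf9, Ifngr1, Ifngr2, Ifng and Rnf31, the list members past the 2-fold rule or with the largest absolute log2 ratios, the cluster neighbours and the 5 genes nearest to Gbp2 (predicted genes left out). Col17a1 and Dsg3, which the rule allows, are left out, and 1 further gene of the rule is not reported here. Named after their values were seen are Atl2, Atl3, Fnta, Fntb, Pggt1b, H2-Aa, Cd74, Gsdmd, Aim2, Nlrp3, Ifnb1, Ifne, Gbp2b, Gbp2-ps, Krt5, Krt1, Lor, C1qa, C1qb, C1qc, Csf1r, Irgm1, Irgm2, Il27, Atl1, Klrk1, Cd247, Gzma, Cd3g, Gm43302, Ncr1 and Cd8a.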

Additional observations from a re-analysis of the deposited data

How the results depend on the processing

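No member changed direction in the 60 recomputed member values (10 members under 6 settings). Changing the pseudocount or the floor cannot turn a direction, so only the other scalings could have done so. Of the 60 values, 40 stayed within the counting interval of the main value. Those under the other floors were the main values again, and the 20 that moved were those with other pseudocounts. The count of members called higher was 8, was 9 with a pseudocount of 0.1 or 0.01 (Gbp9 added), 8 with no floor and under both other scalings, 6 of 7 with the floor on the mean of both libraries, 7 with Gbp6 and Gbp10 summed as 1 gene (chosen after seeing the data), and 4 with a 4-fold rule. The median log2 ratio of the members above the floor, 1.73, was 3.09 and 3.42 with pseudocounts of 0.1 and 0.01, 2.27 with the floor on the mean, 1.55 with no floor, and 1.77 and 1.70 under scaling by the median of ratios and with the 50 most abundant genes left out. The ratio of the summed level was 14.4 and 13.1 under these scalings and 12.4 without the 4 members that have 90% coding identity to another, a setting chosen after seeing the data. The planned setting with 90% protein identity was not run, since no protein sequences were used here. Over all genes the 595 called lower became 1085 and 1151 with pseudocounts of 0.1 and 0.01. The scalings moved the median log2 ratio of all genes by 0.07 and -0.05. Of 282 list counts and medians, 271 stayed within 1.5 times or within the counting interval, and 11 moved. With the 50 most abundant genes left out, 2 list medians near 0 turned sign, that of vacuole targeting from 0.06 to -0.0019 and that of the prenylation enzymes from 0.04 to -0.02. No paired analysis was possible because each genotype has 1 library, and no replicate could be left out. Depth limits the low members, since Gbp5 in WT rests on about 10 fragments and Gbp6 on about 15.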
